A study of Mus musculus with 6 samples.

Results

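The STAT genes encode signal transducers and activators of transcription, and 6 of them were followed here in brain microglia of a lupus-prone mouse strain: Stat2, Stat3, Stat4, Stat5a, Stat5b and Stat6. They were chosen by gene symbol, with earlier results of these data known. They are 6 of the 55401 genes in the count table, of which 19554 passed the filter on low counts, these 6 included. Microglia were isolated from the brains of untreated mice aged 6 weeks on a Percoll gradient and by magnetic selection for CD11b, a surface protein that other myeloid cells also carry. MRL/lpr mice are mutant for the death receptor gene Fas (the lpr allele) and develop a lupus-like disease. MRL/mpj mice are the control strain without that mutation. There were 3 libraries per strain, 6 in all. The comparison asks how the RNA of these genes differs between lupus-prone and control microglia.

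STAT proteins wait in the cytoplasm until a cytokine receptor and its Janus kinases phosphorylate them, after which they pair, enter the nucleus and bind DNA. STAT2 works with IRF9 downstream of type I interferon receptors and drives interferon-stimulated genes. STAT3 follows the IL-6 and IL-10 families, STAT4 follows IL-12, STAT5A and STAT5B follow GM-CSF, IL-3 and IL-2, and STAT6 follows IL-4 and IL-13. Activity of these proteins is set by phosphorylation, which RNA levels do not measure.

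Total counts ran from 45481609 to 49846634 per library. Counts piled up at multiples of 4, with 1234 genes at 4 counts and 254 at 5 in MRL/lpr replicate 1. In MRL/lpr replicate 3 a single gene, CT010467.1, held 6.38% of the counts, against at most 0.457% elsewhere, and mitochondrial genes took 3.06% to 3.49% in MRL/lpr against 5.84% to 6.38% in MRL/mpj. Fas had 282 to 461 counts in MRL/lpr and 362 to 432 in MRL/mpj, so the count did not separate the strains. The methods describe female mice, whereas Xist, the RNA of the inactive X chromosome, had 8886 to 11319 counts in MRL/lpr and 27 to 38 in MRL/mpj. The 4 Y-linked genes Ddx3y, Eif2s3y, Kdm5d and Uty summed to 8408 to 11783 and 13155 to 15046 counts. Sex make-up therefore moved with strain in all 6 libraries, and its part in each difference cannot be told apart from that of the strain. Microglia markers summed to 22153 to 24682 CPM (counts scaled to a common library size with TMM factors) in MRL/lpr and 25503 to 26204 in MRL/mpj, with Csf1r the most abundant. Markers of NK and T cells summed to 33.9 to 39.9 against 8.44 to 10.5 CPM, with 11 of 15 tested markers higher in MRL/lpr. Those of B and plasma cells summed to 492 to 508 against 322 to 344 CPM, with 4 of 8 higher and none lower. Those of monocytes and neutrophils summed to 607 to 695 against 497 to 564 CPM, with 4 of 10 higher and 1 lower. Over all genes tested, 11.1% were higher and 9.06% lower. Markers of choroid plexus and ependyma summed to 340 to 355 against 1017 to 1095 CPM. No listed marker was at 0 in every library. In bulk RNA, fewer cells of a type and less RNA per cell cannot be told apart.

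The promoters of the genes that passed the test are shown here. Each sequence is the 250 bases before the RefSeq start on GRCm38.p6, written along the gene's strand, with capitals for matches to the motifs searched.
Stat2, chr10:128270248-128270497, + strand: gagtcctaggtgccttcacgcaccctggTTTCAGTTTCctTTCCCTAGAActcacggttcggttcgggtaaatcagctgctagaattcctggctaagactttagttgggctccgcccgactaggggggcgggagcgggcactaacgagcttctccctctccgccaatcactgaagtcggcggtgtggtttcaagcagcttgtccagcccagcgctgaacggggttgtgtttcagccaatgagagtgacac
Stat3, chr11:100939541-100939790, - strand: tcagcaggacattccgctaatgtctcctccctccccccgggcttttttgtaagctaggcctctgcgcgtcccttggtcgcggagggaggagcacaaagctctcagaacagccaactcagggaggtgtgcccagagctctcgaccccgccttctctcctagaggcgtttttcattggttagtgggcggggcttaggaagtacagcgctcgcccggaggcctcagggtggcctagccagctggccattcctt
Stat6, chr10:127642736-127642985, + strand: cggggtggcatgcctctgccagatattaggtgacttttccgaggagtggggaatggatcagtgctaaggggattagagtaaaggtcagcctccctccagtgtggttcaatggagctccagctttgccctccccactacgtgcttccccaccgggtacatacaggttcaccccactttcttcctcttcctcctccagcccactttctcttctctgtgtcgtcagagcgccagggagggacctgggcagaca
The motifs were GAAANNGAAA on either strand, the core of the interferon-stimulated response element, and the STAT palindromes TTCNNNGAA and TTCNNNNGAA. The Stat2 window held TTTCAGTTTC starting 222 bases before the start and TTCCCTAGAA starting 210 bases before it, 2 matches that lie side by side. The Stat3 and Stat6 windows held none of the 3 motifs, nor did those of Stat5a and Stat5b. One of the windows of Stat4, which did not pass the test, also held the interferon motif, as GAAAGTGAAA starting 97 bases before that start. Among 32851 windows of this length in the RefSeq table, 2.98% held the interferon motif, 7.02% TTCNNNGAA and 5.85% TTCNNNNGAA. A match is a description of letters and was not tested as a binding site.

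Stat2 was the member with the largest difference between strains. Its CPM was 112, 109 and 94.6 in MRL/lpr replicates 1, 2 and 3, and 45.9, 38.1 and 52.5 in MRL/mpj replicates 1, 2 and 3. Every MRL/lpr library was above every MRL/mpj library. The means were 105 ± 9.35 and 45.5 ± 7.19 CPM (SD, n = 3 each), a 2.31-fold difference with a 95% interval of 1.91 to 2.80. On the log2 scale the change was 1.21 with a standard error of 0.12, with an adjusted p of 0.000126 (edgeR, quasi-likelihood, Benjamini-Hochberg). Stat2 was the only member called differentially expressed by the study's limits, an adjusted p under 0.05 with a log2 fold change of 1 or more in size. Over all genes tested, 8.34% met both limits.

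**Figure D1:**
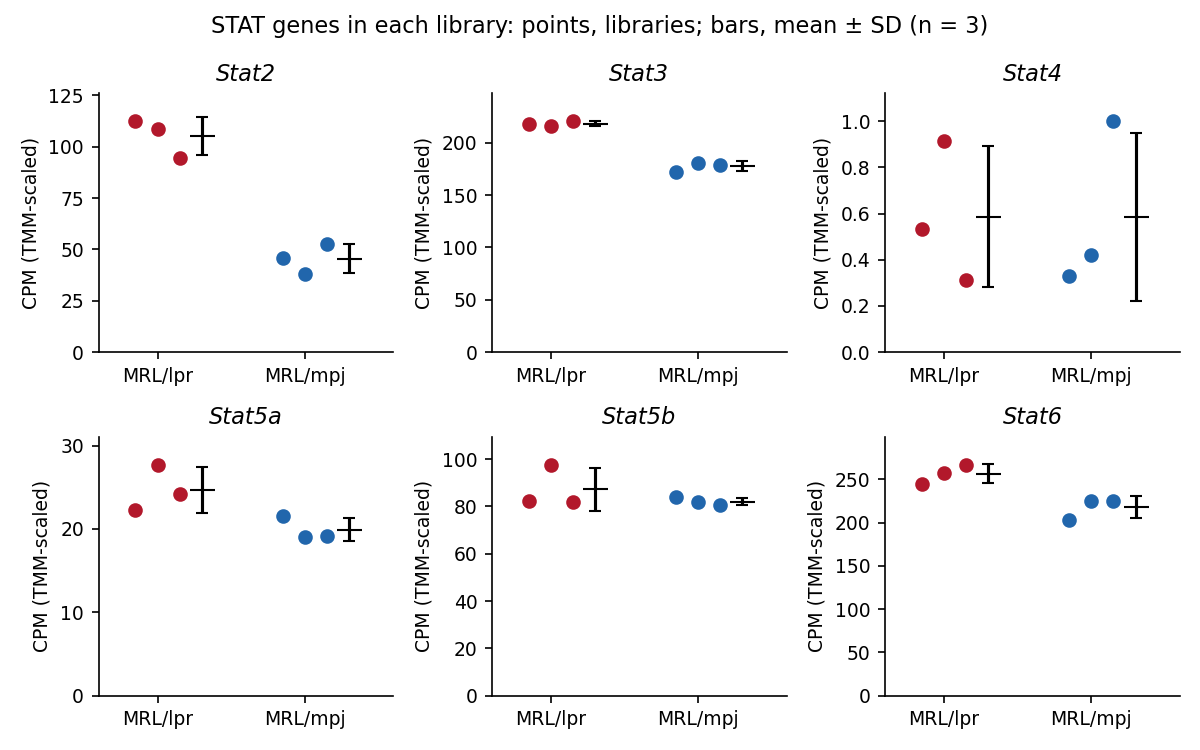
CPM (y axis from 0, TMM-scaled) of each STAT gene, with a point for each of 3 libraries per strain and a bar for the mean ± SD. Stat2 separates most, with 94.6 to 112 CPM in MRL/lpr and 38.1 to 52.5 in MRL/mpj, while Stat4 stays below 1 CPM with full overlap.

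Stat3, which carries IL-6 and IL-10 family signals, was also higher in MRL/lpr, by much less than Stat2. Its CPM was 218, 216 and 220 in MRL/lpr and 172, 181 and 179 in MRL/mpj, in replicate order. The groups did not overlap and were tight, at 218 ± 2.07 and 177 ± 4.74 CPM (SD, n = 3 each). The log2 fold change was 0.30 with a standard error of 0.06 and an edgeR adjusted p of 0.00594. With scaling by library size only, Stat3 no longer passed (log2 fold change 0.18, edgeR adjusted p = 0.0787), and the median of all genes moved from -0.01 to -0.13. Relative to that median Stat3 was 0.31 in both.

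Stat6, the IL-4 and IL-13 transducer, had CPM of 245, 257 and 267 in MRL/lpr and 203, 225 and 225 in MRL/mpj. Each MRL/lpr library was above each MRL/mpj library. The log2 fold change was 0.24 with a standard error of 0.07 and an edgeR adjusted p of 0.0378. This call rested on the processing, since leaving out any library but MRL/lpr replicate 3 gave an edgeR adjusted p between 0.0513 and 0.157, and scaling by library size only gave a log2 fold change of 0.11 (edgeR adjusted p = 0.296). Relative to the median of all genes, Stat6 was at 0.244 under that scaling and 0.245 with TMM. Together 3 of 6 members had an adjusted p under 0.05, each higher in MRL/lpr, where 20.2% of all genes tested passed in either direction, 11.1% were higher and 9.06% were lower.

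Stat5a and Stat5b are close paralogs that act below GM-CSF and IL-3 receptors, and neither passed the test. Stat5a had 22.2, 27.7 and 24.2 CPM in MRL/lpr and 21.6, 19.0 and 19.2 in MRL/mpj. Its groups did not overlap, but replicate 1 of the 2 strains lay close together. The log2 fold change was 0.31 with a standard error of 0.11 and an edgeR adjusted p of 0.0939. Stat5b had 82.1, 97.6 and 81.8 CPM in MRL/lpr and 83.8, 81.8 and 80.5 in MRL/mpj, so that only MRL/lpr replicate 2 stood above the rest. Its log2 fold change was 0.09 with a standard error of 0.09 and an edgeR adjusted p of 0.553. Counts summed over both genes gave 0.13 with an edgeR adjusted p of 0.332. CPM did not overlap between strains, with MRL/lpr higher, for 4 of 6 members (Stat2, Stat3, Stat5a and Stat6), against 19.6% of all genes tested.

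The paralogs share stretches of sequence. The longest open reading frames of Stat5a and Stat5b were identical at 90.71% of 2294 aligned bases. Of the 50-base windows of Stat5a, 25.9% also occurred in Stat5b transcripts. With windows of 75 bases the share was 16.7%, and with 150 bases, the read length in the methods, it was 7.8%. Among the other 14 pairs of members, identity was at most 60.73% and no 50-base window was shared. How the authors' counting treated such reads is not given in the sources used here, so the split between Stat5a and Stat5b is uncertain. Within a library, the log2 ratio of Stat5a to Stat5b FPKM was -2.19 ± 0.06 in MRL/lpr and -2.41 ± 0.08 in MRL/mpj (SD, n = 3 each). The difference of 0.22 had an exact permutation p of 0.1, two-sided, the smallest that 3 libraries against 3 can give, and 0.12 after adjustment over the 6 ratios compared.

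Stat4, which carries IL-12 signals in NK and T cells, was barely detected. It had 25, 43 and 13 counts in MRL/lpr and 17, 21 and 52 in MRL/mpj. The groups overlapped fully, at 0.585 ± 0.305 and 0.583 ± 0.363 CPM (SD, n = 3 each). The log2 fold change was 0.01 with a standard error of 0.66 and an edgeR adjusted p of 0.996. The 95% interval ran from -1.48 to 1.498, which includes a change as large as that of Stat2. Gm28177, a transcript on the same strand, overlaps Stat4 by 29929 bases and had 0 to 221 counts, so reads there are uncertain.

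**Figure D2:**
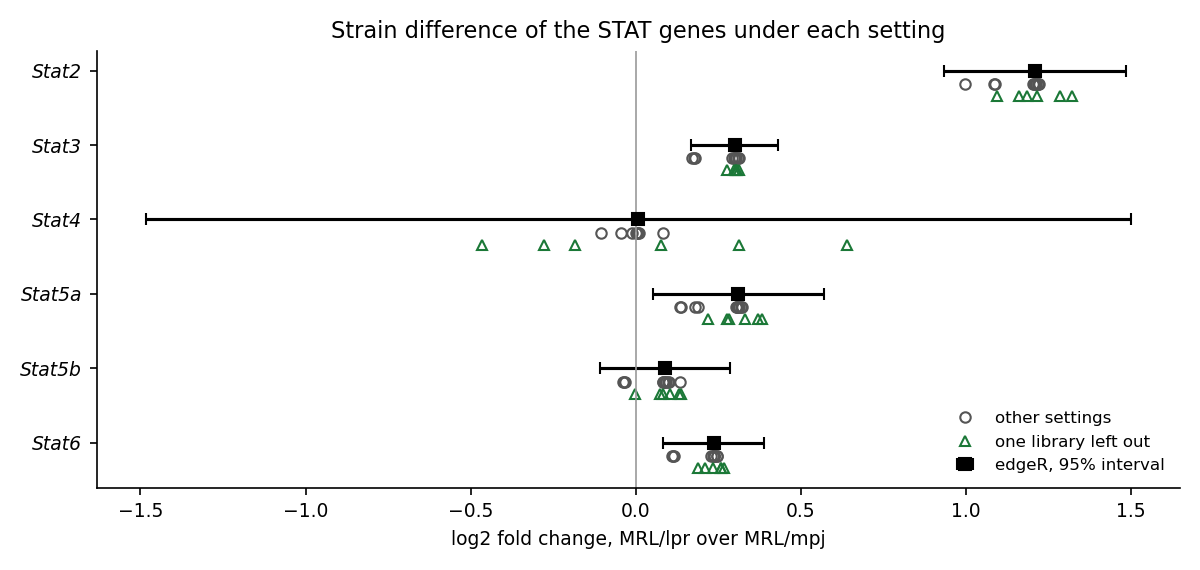
Log2 fold change of MRL/lpr over MRL/mpj (x axis) for each STAT gene, with the edgeR estimate and 95% interval as squares, other settings as circles and fits with one library left out as triangles. Stat2 stays between 0.997 and 1.32, while Stat4 runs from -0.47 to 0.64 and crosses 0.

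Levels between genes were compared per length, as FPKM, which scales fragments by gene length and by depth. Stat6 was the most abundant member in both strains, at 49.8 ± 1.16 FPKM in MRL/lpr and 46.0 ± 2.70 in MRL/mpj (SD, n = 3 each). Stat3 followed at 19.6 ± 0.457 and 17.3 ± 0.476 FPKM. Both were clear of their neighbours in each library. Stat2 had 16.5, 15.9 and 13.2 FPKM in MRL/lpr and 7.20, 5.98 and 8.23 in MRL/mpj. Stat5b had 12.9, 15.4 and 12.2 FPKM in MRL/lpr and 14.1, 13.7 and 13.5 in MRL/mpj. Stat2 thus lay below Stat5b in each MRL/mpj library and above it in each MRL/lpr library, although the ranges of the 2 genes overlapped in MRL/lpr. Stat5a had 2.96 ± 0.366 and 2.60 ± 0.185 FPKM, and Stat4 had 0.127 ± 0.0702 and 0.137 ± 0.0907.

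The summed FPKM of the 6 genes was 97.2 to 105 in MRL/lpr and 83.8 to 89.5 in MRL/mpj. Stat2 made up 15.01% ± 1.44 of that sum in MRL/lpr and 8.21% ± 1.23 in MRL/mpj (SD, n = 3 each). Stat5b made up 13.3% ± 1.09 and 15.9% ± 0.844, and Stat6 49.3% ± 1.86 and 52.9% ± 1.59. Shares of Stat2 and Stat5b did not overlap between strains, with an exact permutation p of 0.1, two-sided, and 0.3 after adjustment over the 6 shares. The ratio of Stat2 to Stat3 FPKM was 0.690 to 0.829 in MRL/lpr and 0.338 to 0.471 in MRL/mpj. The log2 difference between strains in that ratio was 0.92, with an exact permutation p of 0.1, two-sided (0.12 adjusted), and it does not depend on scaling between libraries.

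**Figure D3:**
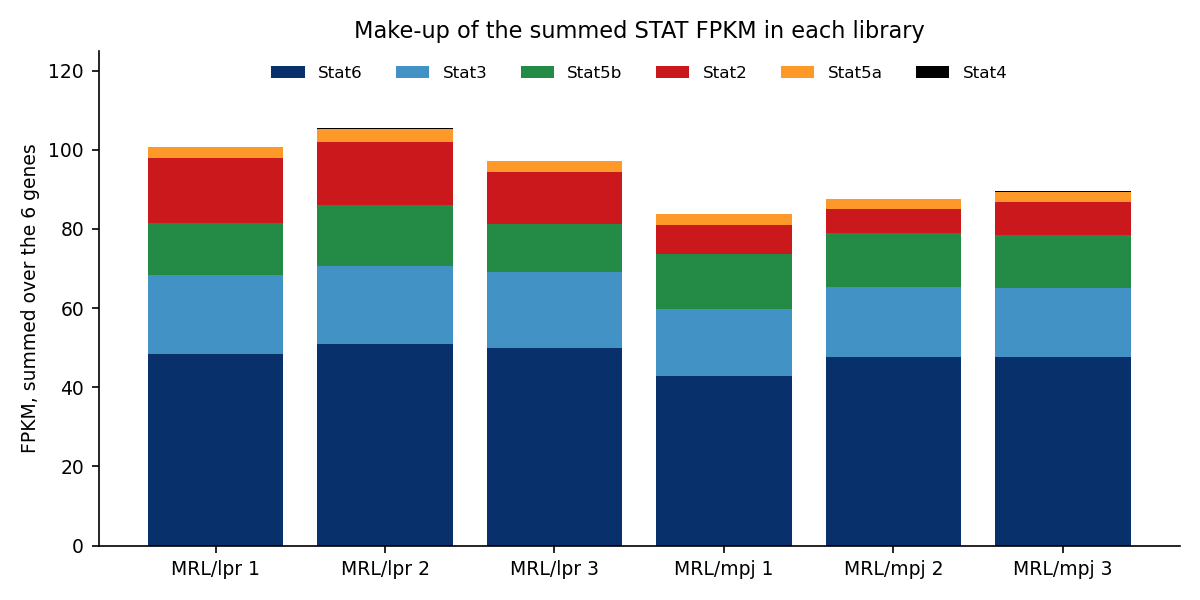
FPKM summed over the 6 STAT genes (y axis) in each library, with a colour per gene. The sum is 97.2 to 105 in MRL/lpr and 83.8 to 89.5 in MRL/mpj, and the Stat2 block is 13.2 to 16.5 against 5.98 to 8.23 FPKM.

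The genes lie in 3 chromosome regions (GENCODE M21 on GRCm38). Stat6 (chr10:127642986-127660957, + strand) and Stat2 (chr10:128270559-128292849, + strand) are 609601 bases apart. Stat5b (chr11:100780731-100850724, - strand), Stat5a (chr11:100859351-100885169, + strand) and Stat3 (chr11:100885098-100939540, - strand) are adjacent, with 8626 bases between Stat5b and Stat5a. The ends of Stat5a and Stat3 overlap by 72 bases on opposite strands. Stat4 lies at chr1:51987148-52107189 on the + strand. Beside Stat2, Timeless had a log2 fold change of 1.01 (edgeR adjusted p = 0.000306) and Il23a, a cytokine subunit gene, 0.46 (edgeR adjusted p = 0.580).

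The most alike genes by Pearson's r of log2 CPM over the 6 libraries were Iigp1, Cdc14a and Ighj1 for Stat2, at 0.999, 0.999 and 0.998. Of 14921 genes compared, 788 had an r of at least 0.95 with Stat2 and 961 with Stat3. The 6 points share 2 strains, so genes that differ between strains correlate. For Stat5b only 16 genes reached that value. Psmc3, a proteasome subunit gene, led them at 0.998.

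The Janus kinases that phosphorylate STAT proteins were higher for 3 of 4 genes, against 11.1% of all genes tested. Jak3, the partner of the common gamma chain, had a log2 fold change of 1.05 (206 ± 10.4 against 99.4 ± 1.80 CPM, SD, n = 3 each; edgeR adjusted p = 6.87e-06). Jak1 rose by 0.53 and Tyk2, used by type I interferon and IL-12 receptors, by 0.28 on the log2 scale (edgeR adjusted p = 0.000234 and 0.0144). Jak2 was at 0.09 (edgeR adjusted p = 0.586). The list's median was 0.41, against -0.01 over all genes.

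Around Stat2, the partner gene Irf9 rose and the receptor genes did not pass. Irf9 was at 84.8 ± 15.9 CPM in MRL/lpr and 54.4 ± 0.972 in MRL/mpj (SD, n = 3 each), a log2 fold change of 0.64 with an edgeR adjusted p of 0.00519. Ifnar1 and Ifnar2, the type I interferon receptor chains, were at -0.09 and 0.07 (edgeR adjusted p = 0.677 and 0.557). The other listed receptor gene, Ifnlr1, was at 2.98 (edgeR adjusted p = 0.155). It had few reads, with 23, 21 and 14 counts in MRL/lpr and 0, 0 and 8 in MRL/mpj. Of 20 listed target genes of the STAT2 complex, 19 were higher and none lower (11.1% and 9.06% of all genes), with a median of 2.03. Ifi44 had the largest change at 5.20, with 6001, 6119 and 5079 counts against 209, 198 and 118. Ifit3, Oas3 and Irf7, the last a transcription factor of the interferon response, rose by 3.30, 3.10 and 2.86 on the log2 scale (edgeR adjusted p = 1.77e-07, 4.99e-05 and 4.66e-07). Ifit2 was the 1 target that did not pass, with 10474, 10618 and 293 counts in MRL/lpr and 1312, 1377 and 1437 in MRL/mpj. Usp18, which restrains the interferon receptor, rose by 2.72 (edgeR adjusted p = 1.48e-06).

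Around Stat3, 1 of 12 receptor genes tested was higher and 2 were lower, where 11.1% and 9.06% of all genes were. Lifr was higher at 0.70, and Il6st, the shared gp130 chain, and Il21r were lower at -1.23 and -0.55 (edgeR adjusted p = 8.31e-05, 0.00801 and 0.00259). Il6ra was at -0.03 (edgeR adjusted p = 0.731). Il10ra was at 0.62 (edgeR adjusted p = 0.337), with 42303 counts in MRL/lpr replicate 3 and 19590 to 22513 in the other libraries. Of 17 target genes 10 were higher and 1 lower, with a median of 0.77. Pim1, a kinase gene, rose by 1.83, Il10 by 1.54, Bcl3 by 1.09 and Junb by 1.08 on the log2 scale, and Vegfa fell by 0.64. The feedback inhibitor Socs3 rose by 0.38 (edgeR adjusted p = 0.00201).

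Around Stat5a and Stat5b, 7 of 13 receptor genes were higher and 2 lower (11.1% and 9.06% of all genes), with a median of 0.46. Il3ra, the IL-3 receptor chain, rose by 2.45, Il2rb by 2.05, Crlf2 by 1.68, Csf2ra, the GM-CSF receptor chain, by 0.97 and Il2rg by 0.90 on the log2 scale. Il2rb and Il2rg are also receptor chains of NK and T cells, whose markers were higher for 11 of 15 genes, with a median of 1.88, and the part of those cells was not tested. Prlr, the prolactin receptor, fell by 2.24. Markers of choroid plexus and ependyma were also lower, for 4 of 6 genes, and their part was not tested. Csf2rb was at 0.12 (edgeR adjusted p = 0.404). Of 14 target genes 6 were higher and none lower, with a median of 0.35. Cish, a feedback inhibitor, rose by 0.94 and Osm by 0.77, while Socs2 was at -0.39 (edgeR adjusted p = 0.203).

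Around Stat6, Il4ra had 233 ± 31.6 CPM in MRL/lpr and 123 ± 3.67 in MRL/mpj (SD, n = 3 each), a log2 fold change of 0.92 with an edgeR adjusted p of 0.000146. Il13ra1 was at 0.01 (edgeR adjusted p = 0.939). Of 13 target genes 5 were higher and 2 lower (11.1% and 9.06% of all genes), with a median of -0.05. Only 1 was lower when any one of the 6 libraries was left out. Ccl24 rose by 1.74, Mgl2 by 1.38 and Cish by 0.94, and Chil3 fell by 1.59 on the log2 scale. The lists share genes, so their counts are not independent. Cish is also listed as a STAT5 target and a SOCS gene, and Il4ra as a STAT3 target. Pim1 is listed for STAT3 and STAT5, and Gadd45g for STAT4 and STAT5.

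Around Stat4, neither tested receptor gene passed. Il12rb1 was at 0.63 and Il12rb2 at -1.66 (edgeR adjusted p = 0.595 and 0.0681). Il12rb2 passed, as lower, without MRL/lpr replicate 2, with DESeq2 and with counts divided by 4. Of 10 target genes 6 were higher and none lower (11.1% and 9.06% of all genes), with a median of 1.16. Among them were the cytotoxic genes Prf1 at 2.61 and Gzmb at 2.59 (edgeR adjusted p = 0.00158 and 0.000333). The others were Gadd45g at 0.80, Il18rap at 0.78, Gadd45b at 0.70 and Hlx at 0.63. Prf1 and Gzmb rose beside the NK and T cell markers given above, among which Prf1 is itself listed, and the markers' part was not tested. Of the other inhibitors, 2 of 8 SOCS genes (Cish and Socs3) and 2 of 11 PIAS and phosphatase genes (Usp18 and Ptprc) were higher and none lower, against 11.1% and 9.06% of all genes. Socs1 was at 0.34 (edgeR adjusted p = 0.288).

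**Figure D4:**
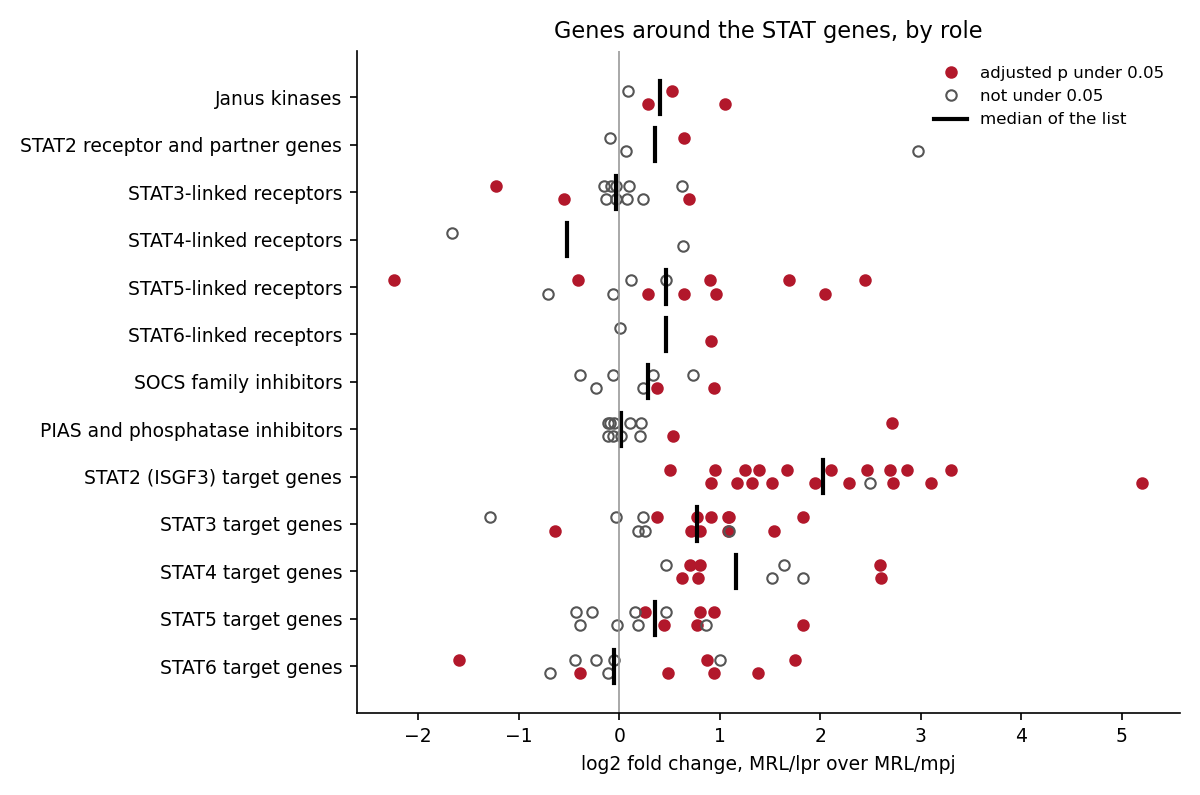
Log2 fold change of MRL/lpr over MRL/mpj (x axis) for genes around the STAT genes, a row per role, with filled points for an adjusted p under 0.05 and a black line at each list's median. The STAT2 target genes lie farthest right, with 19 of 20 higher and a median of 2.03, and the STAT6 target genes are centred at -0.05.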

How the data were processed

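Per the submitters' processing notes, reads were handled with Cutadapt 1.9.3, HISAT2 2.0.4, Cuffdiff 2.2.1 and Cufflinks on GRCm38. The counting tool and annotation are not given in the sources used here, and the methods describe DESeq2 and mRNA purification whereas the labels name a kit that depletes ribosomal RNA. The deposited values were unnormalized counts, as whole numbers, and FPKM for each library. Symbols came from GENCODE M21, which matched 55141 of 55401 identifiers.

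Counts were tested between strains in edgeR 4.0.16 under R 4.3.3 (filterByExpr with min.count 10 and min.total.count 15, TMM scaling, robust quasi-likelihood test, Benjamini-Hochberg adjustment over 19554 genes). Ratios and FPKM shares were compared by exact permutation over libraries (SciPy). The study states its n as mice, but the labels do not tie libraries to animals, so p-values measure the spread between these samples. The edgeR fit was tested on simulated data. Alternatives were DESeq2 1.42.0, limma 3.58.1 on log2(FPKM + 0.1) and log2(FPKM + 1), other scaling, filters and dispersions, counts divided by 4, a replicate block and leaving out each library. Named genes are the members, up to 4 genes with the largest change past the threshold per list, a fixed set of receptors, kinases and inhibitors, the 3 most alike genes per member, neighbours and marker genes; some others were named after their values were seen. The members and lists were chosen with earlier results of these data known. A gene of the rule is left unreported.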

Additional observations from a re-analysis of the deposited data

How the results depend on the processing

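Stat2 stayed past the threshold in 16 of 16 alternatives, at 0.997 to 1.32 on the log2 scale. Stat3 fell short under library size only (0.18), and with limma on log2(FPKM + 0.1) (0.18) and log2(FPKM + 1) (0.17). Stat6 fell short under library size only (0.11), with no count filter (0.23), in both FPKM fits (0.115 and 0.113) and with libraries left out (0.19 to 0.27). Stat5b changed sign under library size only (-0.033), in the FPKM fits (-0.037 and -0.035) and with MRL/lpr replicate 2 left out, where the range over libraries was -0.0022 to 0.14. Stat4 changed sign under library size only (-0.10), in the FPKM fits (-0.044 and -0.012) and with libraries left out (-0.47 to 0.64), and was not tested under the filter of 50 counts or with counts divided by 4. Members with an adjusted p under 0.05 numbered 1 under library size only and in both FPKM fits, and 0 members were differentially expressed with log2(FPKM + 1), whose pseudocount shrinks fold changes. Relative to the median of all genes, Stat5b stayed above 0 in each setting. The leave-one-out shares, a check chosen after seeing the data, changed sign for Stat4 (-0.068 to 0.025 percentage points, MRL/lpr minus MRL/mpj) and Stat5a (-0.21 to 0.11). Otherwise the cause was not tested.

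The replicate numbers showed no sign of pairing, with correlations of deviations of -0.06, -0.03 and -0.08 between same-numbered libraries. This check cannot exclude that same-numbered libraries were handled together. With a replicate block Stat6 was at 0.24 with an edgeR adjusted p of 0.0637, no other member's call changed, and genes called over the whole table went from 1630 to 1422. Among the lists, lower STAT6 target genes numbered 1 in place of 2 under the block. Higher Janus kinases numbered 2, not 3, under the block, library size only, both FPKM fits and without MRL/mpj replicate 1 or 2. Higher STAT5-linked receptor genes numbered 5, not 7, in all these settings and without MRL/lpr replicate 1 or 2. Of these settings, higher STAT5 target genes stayed at 6 without MRL/lpr replicate 2, numbered 5 under the block and 4 in the others. Without MRL/mpj replicate 3 the STAT5 lists gave 6 and 5. Under library size only, 1 SOCS, 1 PIAS and phosphatase and 1 STAT5 target gene were lower in place of 0. In both FPKM fits 1 PIAS and phosphatase and 1 STAT5 target gene were lower. In these fits 1 gene in place of 2 was higher in each inhibitor list. Without MRL/mpj replicate 3, 2 genes in place of 1 were higher around Stat2. Stat4 had 13 to 52 counts and coefficients of variation of 52.1% and 62.2%, and what depth adds to its interval was not tested.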
